A study of Mus musculus with 14 samples.

Results

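The transcription factor genes that steer T cells into effector lineages were followed in spleen T cells of mice with chronic myeloid leukemia (CML). The group held 10 of the 24091 genes with deposited counts and was picked by gene symbol: the T-box factors Tbx21 and Eomes, the type 2 factor Gata3, the RUNX factors Runx1, Runx2 and Runx3 with their shared partner Cbfb, the repressor Prdm1, and the zinc finger factors Zeb1 and Zeb2. T cells (200000 per mouse) were sorted from the spleen of 8 Mir142+/+BCR-ABL mice, called CP CML for chronic phase (genotype label BCR-ABL), and of 6 Mir142-/-BCR-ABL mice, called BC CML for blast crisis (genotype label MIr142 KO BCR-ABL), with 1 mRNA library per mouse. All 14 mice carried the SCLtTA/BCR-ABL transgenes, in which BCR-ABL is switched on when tetracycline is withdrawn, and BCR-ABL had been on for 3 weeks. They were C57Bl/6j mice, 6 to 10 weeks old, with no other treatment in the labels. The study used mice of both sexes, and the sex of each of these mice is not given here. The Mir142 deletion was carried by the whole animal and not by T cells alone, and no mouse without leukemia was in the series, so an effect inside the T cells and an effect of the more advanced leukemia cannot be told apart. The column names of the CP CML and BC CML mice carry different number prefixes, whose meaning is not given in the sources used here, so whatever they mark cannot be told apart from genotype.

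These factors work as a network of choices. T-bet, the product of Tbx21, and Eomes drive the type 1 and cytotoxic programs and induce killing and chemokine genes, whereas GATA3 drives the type 2 program and is held in check by T-bet. RUNX proteins bind DNA together with CBFβ, silence Cd4 in the CD8+ lineage and act with the T-box factors in cytotoxic cells. Blimp-1, the product of Prdm1, represses genes of naive and memory cells late in effector differentiation, and ZEB1 and ZEB2 are related repressors of which ZEB2 acts downstream of T-bet in terminal effector cells.

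Depth was similar in the groups, with 15703702 to 19914531 counted reads in CP CML and 16145537 to 19399720 in BC CML. Mir142, the deleted gene, had 302 to 650 reads in every CP CML mouse and 0 in every BC CML mouse, at least 168-fold lower against a floor of 3 reads per library. T cell markers were abundant, with a summed level of 4490 to 5080 CPM (normalised read counts relative to library size) in CP CML and 5630 to 6040 CPM in BC CML over the 11 of 14 markers listed in the table. Markers of other cells were present too and were mostly higher in BC CML. The summed level of 14 neutrophil and monocyte markers was 64.5 to 721 CPM in CP CML and 836 to 2230 CPM in BC CML, that of 8 NK cell markers 61.4 to 83.8 and 248 to 369 CPM, and that of 8 naive T cell markers 5730 to 7160 and 3520 to 4910 CPM.

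All 10 genes had enough reads to be tested among 12248 genes. In BC CML 6 of them were higher (Tbx21, Eomes, Gata3, Runx2, Runx3 and Zeb2) at an adjusted p below 0.05 (edgeR's quasi-likelihood test, Benjamini-Hochberg over all genes tested), where 32.6% of all genes were higher. Lower were 3 of them (Runx1, Cbfb and Prdm1), against 32.7% of all genes, and Zeb1 did not pass. The median log2 fold change of the 10 genes was 0.35 against -0.01 over all genes, and their median absolute change was 0.58 against 0.28. In 4 genes (Tbx21, Eomes, Runx2 and Zeb2) all BC CML values exceeded all CP CML values, which held for 19.3% of all genes, and in 3 (Runx1, Cbfb and Prdm1) all BC CML values lay below them, which held for 17.6%. Only Tbx21, Eomes and Zeb2 of the 10 rose by at least 1 on the log2 scale, as did 10.1% of all genes.

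**Figure D1:**
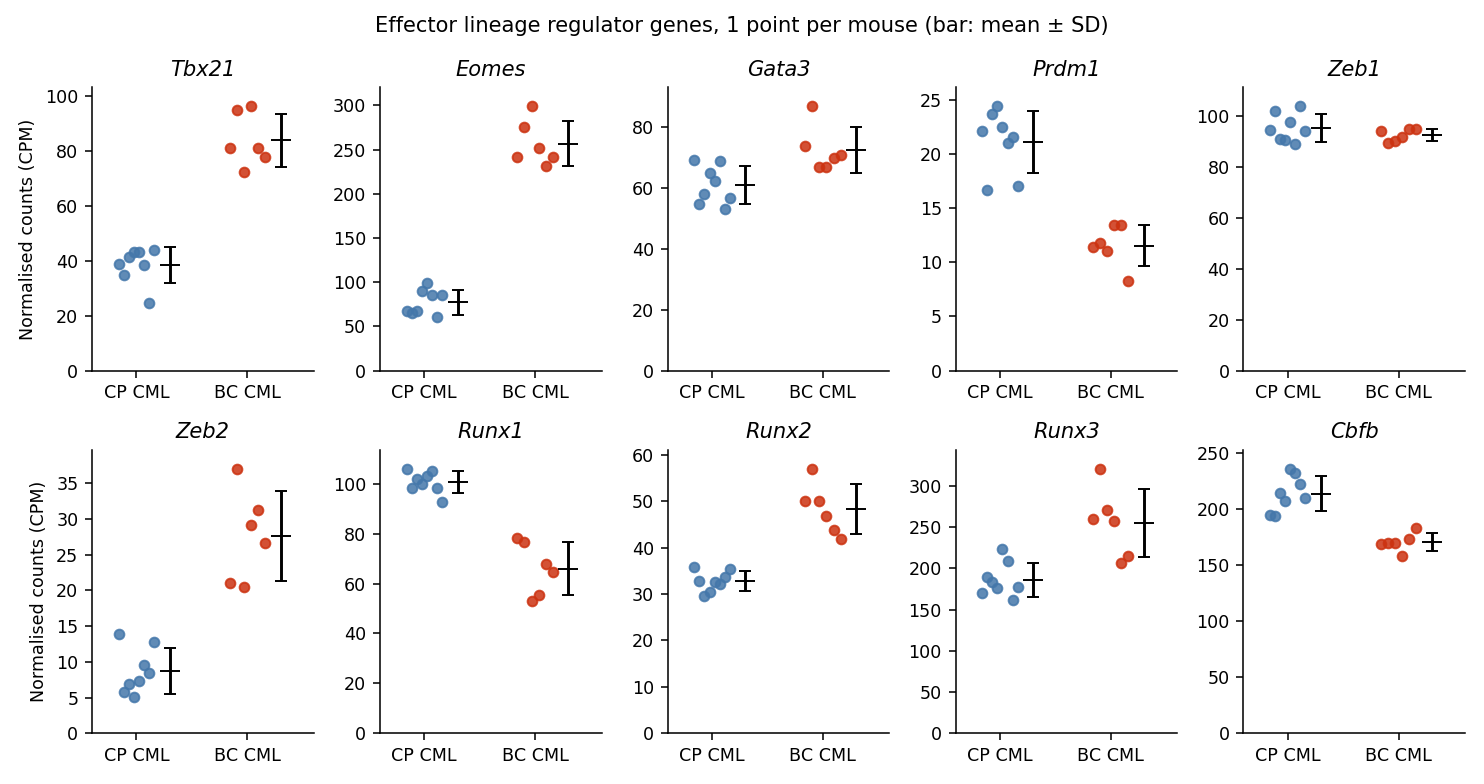
Normalised counts (CPM, vertical axes from 0) of the 10 regulator genes, with 1 point per mouse in CP CML (8 mice, blue) and BC CML (6 mice, red) and the mean ± SD as a bar beside the points. The groups did not overlap for Tbx21, Eomes, Runx2 and Zeb2, which were higher in BC CML, and for Runx1, Cbfb and Prdm1, which were lower.

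Eomes and Zeb2 had the largest log2 fold changes of the 10 (1.73 and 1.66), a gap smaller than the standard error of Zeb2 (0.22). Zeb2 came first without CP CML mouse 1 (1.79 against 1.70), CP CML mouse 8 (1.76 against 1.75) or BC CML mouse 3 (1.74 against 1.68). With the neutrophil and monocyte marker level as a covariate, Zeb2 (1.09) came after Tbx21 (1.21). Eomes directs cytotoxic and memory CD8+ T cells and NK cells, and is listed at chr9:118478189-118486132 of mm10 (plus strand). Its level was 60.3 CPM in the lowest CP CML mouse, 76.4 at the median and 99.0 in the highest, and 231, 247 and 299 CPM at the same points of BC CML. The lowest BC CML mouse therefore stood well clear of the highest CP CML mouse. The mean went from 77.6 ± 14.2 CPM (SD, n = 8) to 257 ± 25.4 CPM (SD, n = 6), 3.31-fold higher (log2 fold change 1.73, standard error 0.11, adjusted p = 1.5e-09, edgeR's quasi-likelihood test).

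Tbx21, which encodes T-bet, the factor that induces the type 1 program, is listed at chr11:97098007-97115331 (minus strand). CP CML mice had 24.5 CPM at the lowest, 40.1 at the median and 44.0 at the highest, and BC CML mice 72.4, 80.9 and 96.2 CPM. Here too the groups stood apart, and CP CML mouse 7 lay below the others of its group, the next having 34.7 CPM. The mean of 38.5 ± 6.45 CPM (SD, n = 8) became 83.8 ± 9.57 CPM (SD, n = 6), 2.17-fold higher (log2 fold change 1.12, standard error 0.11, adjusted p = 2.1e-07, edgeR's quasi-likelihood test). As these are bulk samples, more or fewer cells of a type and more or less RNA per cell cannot be told apart, here or for any gene below.

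Eomes rose more than Tbx21. Within each library the log2 ratio of Tbx21 to Eomes reads was between -1.30 and -0.71 in CP CML and between -2.04 and -1.39 in BC CML, with no overlap. The mean ratio fell by 0.61 on the log2 scale (1.52-fold; exact two-sided permutation test over the 3003 splits of the mice, p = 6.7e-04, the smallest it can give, and 8.3e-04 after Benjamini-Hochberg adjustment over 5 ratios). Per kilobase of gene length, the share of Eomes in the sum of both T-box genes was in CP CML 55.1% ± 3.48 (SD, n = 8) and in BC CML 65.1% ± 3.43 (SD, n = 6).

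A list of 21 type 1 effector genes that T-bet or Eomes act on, chosen with earlier results of these data known, moved largely in the same direction. All 21 were tested, and 17 were higher and 3 lower, against 32.6% and 32.7% of all genes. The median log2 fold change of the list was 1.30. Ccl3, a chemokine gene, went from 1.29 ± 0.747 to 11.9 ± 6.52 CPM (log2 fold change 3.20, adjusted p = 8.8e-07, edgeR's quasi-likelihood test). Klrc1, which encodes the NKG2A receptor, went from 39.5 ± 7.24 to 221 ± 35.7 CPM (2.48, adjusted p = 2.6e-10). On the log2 scale the granzyme genes Gzmb, Gzma and Gzmk rose by 2.46, 1.95 and 0.88, Fasl (Fas ligand) by 1.55 and Nkg7, a cytotoxic granule gene, by 1.43, while Prf1 (perforin) fell by 0.18. Both chains of the IL-18 receptor also fell, Il18rap by 0.48 and Il18r1 by 0.32. Ifng, the interferon-γ gene and the best known T-bet target, had 6.19 to 10.5 CPM in CP CML and 6.51 to 16.5 CPM in BC CML and did not pass (log2 fold change 0.29, adjusted p = 0.132). With the neutrophil and monocyte marker level as a covariate, none of the 21 was lower. With a mouse left out, 15 to 18 of the 21 were higher, so Ifng passed in some of these fits.

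Markers of NK cells moved with the T-box genes. All 7 tested NK markers were higher, from a log2 fold change of 1.56 for Klrb1c and 2.01 for Ncr1 to 6.73 for Klra8, while Klra4 had 0 reads in every library. NK cells express Tbx21 and Eomes, and their part in the rise was not tested. Among mice of the same group, the deviation of Eomes from the group mean had a Pearson r of 0.06 with that of the NK marker sum and 0.65 with that of the T cell marker sum, over 14 libraries that share their reads between all genes. Tbx21 followed the naive T cell markers inversely, with an r of -0.72.

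Gata3, the master factor of type 2 T cells and a survival factor of all T cells (chr2:9857078-9878600, minus strand), changed little. It had 53.2, 60.1 and 69.1 CPM in the lowest, median and highest CP CML mouse and 66.9, 70.2 and 86.9 CPM in BC CML. The groups overlapped, although 4 of 6 BC CML mice exceeded the whole CP CML group. The mean went from 61.0 ± 6.26 CPM (SD, n = 8) to 72.5 ± 7.51 CPM (SD, n = 6), 1.19-fold higher (log2 fold change 0.25, standard error 0.07, adjusted p = 0.00516, edgeR's quasi-likelihood test). BC CML mouse 2 carried the highest value, and without it the log2 fold change was 0.19 (adjusted p = 0.0151).

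The balance of Tbx21 against Gata3 shifted across 0. The log2 ratio of Tbx21 to Gata3 reads was -1.12 to -0.37 in CP CML, so Gata3 had more reads in every mouse, and 0.11 to 0.52 in BC CML, so Tbx21 had more. This was a rise of 0.88 on the log2 scale (1.85-fold; exact permutation test, p = 6.7e-04, adjusted 8.3e-04). Of 12 type 2 genes that GATA3 acts on, 9 were tested. Of these, 3 were higher and 3 lower, against 32.6% and 32.7% of all genes, and their median log2 fold change was -0.07. The higher ones were Il1rl1, the IL-33 receptor gene, from 16.9 ± 2.87 to 35.3 ± 12.0 CPM (log2 fold change 1.06), Gfi1, a repressor gene of type 2 cells (0.93), and Maf (0.55). The lower ones were the cytokine gene Il10 (-1.24) and the chemokine receptor genes Ccr4 (-0.86) and Ccr8 (-0.55). Il4 had 0.566 to 1.84 CPM in CP CML and 0.72 to 1.56 CPM in BC CML (0.04, adjusted p = 0.892, edgeR's quasi-likelihood test), and Il5, Il13 and Ptgdr2 had too few reads to test. Type 2 innate lymphoid cells also express Gata3 and Il1rl1, and 6 of their markers summed to 20.5 to 38.3 CPM in CP CML and 32.3 to 96.4 CPM in BC CML, of which all 3 tested were higher. Their part in the change of Gata3 was not tested.

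**Figure D2:**
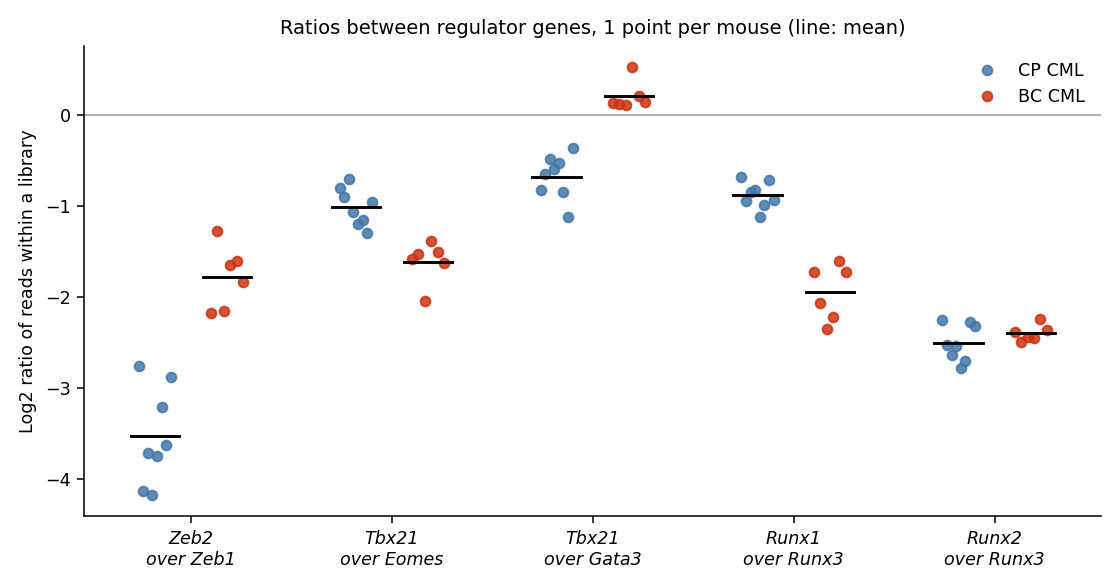
Log2 ratio of the reads of a pair of regulator genes within each library (vertical axis), with 1 point per mouse for CP CML (blue) and BC CML (red) and the group mean as a line. The ratio of Tbx21 to Gata3 lay below 0 in every CP CML mouse and between 0.11 and 0.52 in BC CML, and only the ratio of Runx2 to Runx3 overlapped between the groups.

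Prdm1, which encodes Blimp-1, fell. It is listed at chr10:44437174-44528501 (minus strand). Values in CP CML were 16.7 CPM at the lowest, 21.8 at the median and 24.4 at the highest, and in BC CML 8.23, 11.6 and 13.4 CPM. No BC CML mouse reached the lowest CP CML mouse. The mean of 21.1 ± 2.84 CPM (SD, n = 8) became 11.5 ± 1.90 CPM (SD, n = 6), 1.84-fold lower (log2 fold change -0.88, standard error 0.11, adjusted p = 2.0e-06, edgeR's quasi-likelihood test). With the neutrophil and monocyte marker level as a covariate the log2 fold change was -0.58 (adjusted p = 0.00225), no longer lower than that of Runx1 (-0.61). Within groups the deviations of Prdm1 and of that marker sum had an r of -0.65 over the 14 libraries.

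The summed markers of plasma cells, the B lineage cells with the most Blimp-1, were also lower in BC CML. Their 5 markers summed to 8.53 to 72.0 CPM in CP CML and 3.78 to 8.91 CPM in BC CML, and Jchain, the joining chain gene of antibodies and most of the sum in CP CML, fell by 3.22 on the log2 scale. Of the 4 tested, Sdc1 also fell (-1.21), Derl3 rose (1.03, from 0.539 ± 0.269 to 1.11 ± 0.194 CPM) and Mzb1 did not pass (-0.49, adjusted p = 0.346, edgeR's quasi-likelihood test). Within groups the deviations of Prdm1 and of the plasma cell marker sum had an r of -0.34. The part of plasma cells in the fall of Prdm1 was not tested.

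The list of genes that Blimp-1 represses held changes in both directions. Of its 13 genes, all tested, 8 were lower and 3 higher, against 32.7% and 32.6% of all genes. Their median log2 fold change was -0.61. The lower genes were led by Cxcr5, the follicular homing receptor gene, from 33.2 ± 4.17 to 14.7 ± 6.63 CPM (log2 fold change -1.17, adjusted p = 3.3e-04, edgeR's quasi-likelihood test) and Ccr7, the lymph node homing receptor gene, from 290 ± 22.6 to 140 ± 27.2 CPM (-1.05, adjusted p = 1.8e-07). Several of the 8, such as Tcf7, Ccr7 and Klf2, are also among the naive T cell markers named above. The higher ones were Ciita, the MHC class II activator gene (2.14), Pax5, the B cell identity factor gene (1.67), and Bcl6 (0.58), the repressor gene that opposes Prdm1. Ciita and Pax5 are genes of B cells, whose 8 markers summed to 58.3 to 174 CPM in CP CML and 101.2 to 525 CPM in BC CML. With the neutrophil and monocyte marker level as a covariate, 1 of the 13 genes was higher.

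Zeb2 and Zeb1 went separate ways. Zeb2, which promotes terminal effector T cells and NK cell maturation and is also expressed in myeloid and dendritic cells, is listed at chr2:44983512-45117395 (minus strand). Its level per length was the lowest of the 10 in CP CML, and it had 95 to 255 reads in CP CML mice and 379 to 593 in BC CML mice. In CPM this was 5.01 at the lowest, 7.83 at the median and 13.9 at the highest in CP CML, and 20.4, 27.9 and 37.0 in BC CML. The groups did not overlap. The mean of 8.71 ± 3.20 CPM (SD, n = 8) became 27.6 ± 6.32 CPM (SD, n = 6), 3.17-fold higher (log2 fold change 1.66, standard error 0.22, adjusted p = 8.7e-06, edgeR's quasi-likelihood test).

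Zeb1, which restrains Il2 and supports T cell development (chr18:5591860-5775468, plus strand), changed least of the 10 between the groups. It had 89.2, 94.5 and 104 CPM in the lowest, median and highest CP CML mouse and 89.7, 93.1 and 95.0 CPM in BC CML, all of the latter within the CP CML range. The mean was 95.4 ± 5.36 CPM (SD, n = 8) and 92.7 ± 2.39 CPM (SD, n = 6). The log2 fold change of -0.04 had a 95% interval of -0.12 to 0.04 (adjusted p = 0.381, edgeR's quasi-likelihood test). The log2 ratio of Zeb2 to Zeb1 reads accordingly went from -3.53 ± 0.53 to -1.78 ± 0.34, a rise of 1.75 with no overlap (exact permutation test, p = 6.7e-04, adjusted 8.3e-04). Per kilobase, the share of Zeb2 in both ZEB genes was in CP CML 4.84% ± 1.73 (SD, n = 8) and in BC CML 14.2% ± 2.90 (SD, n = 6).

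Markers of several other cell types moved with Zeb2. Adding the neutrophil and monocyte marker level as a covariate gave 1.09 on the log2 scale (adjusted p = 0.00524, edgeR's quasi-likelihood test). Within groups its deviations had an r of 0.80 with the dendritic cell and with the plasma cell marker sum, 0.68 with the B cell sum, 0.58 with the erythroid and megakaryocyte and with the basophil and mast cell sums, and 0.53 with the neutrophil and monocyte sum, over 14 libraries. Between groups the plasma cell sum was lower in BC CML, unlike Zeb2. The 7 dendritic cell markers summed to 7.47 to 21.4 CPM in CP CML and 32.6 to 120 CPM in BC CML, most of it from Itgax (CD11c). Of the 5 tested, 3 were higher: Itgax (2.74), Flt3 (1.46, at most 10.7 CPM) and Zbtb46 (1.09, at most 2.01 CPM). Clec9a (0.66, adjusted p = 0.184) and Cd209a (-0.49, adjusted p = 0.574, edgeR's quasi-likelihood test) did not pass. Of the 2 with too few reads to test, Siglech was above all CP CML mice in all 6 BC CML mice (at most 1.39 CPM) and Xcr1 overlapped (at most 0.977 CPM). The genes closest to Zeb2 in this measure, of 9160 ranked, were Tyrobp (0.91), an adaptor gene of NK and myeloid cells, and Csf2rb (0.90), a cytokine receptor gene. The part of such cells in the rise of Zeb2 was not tested. Zeb2os, an antisense transcript within Zeb2, was also higher (1 to 10 reads in CP CML, 12 to 27 in BC CML, log2 fold change 1.93, adjusted p = 2.2e-04), and since the strand setting of the counts is not given in the sources used here, reads of the pair may have been shared.

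Zeb2 was also the gene of the 10 with the most matches to the deleted microRNA. A microRNA recognises 3′UTRs mainly through its seed, bases 2 to 8, and the mature sequences from RefSeq (GRCm38.p6, plus strand of chromosome 11) are shown with the seed in capitals to set beside the sites that follow.
miR-142a-3p (chr11:87756903-87756925): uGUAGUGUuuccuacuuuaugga
miR-142a-5p (chr11:87756867-87756887): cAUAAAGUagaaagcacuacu

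The longest annotated 3′UTR of Zeb2 (4941 bases, GENCODE vM21, same build) held 1 match of 8 bases (8mer, the seed match followed by A) and 3 of 7 bases (7mer-A1, without the match to base 8) to miR-142a-3p and none to miR-142a-5p. An 8mer of miR-142a-3p was found in 9.97% and any of these matches in 32.5% of the 782 tested genes with a 3′UTR of like length (within 20%), and in 3.28% and 13.3% of all 11515 tested genes with a 3′UTR. The Zeb2 sites are shown because they pair with the deleted microRNA, 5′ to 3′ on the minus strand of chromosome 2 with the match in capitals.
Zeb2 8mer at base 2626 of the 3′UTR (chr2:44985929-44985958): cacaaataaatACACTACAtagaaattttc
Zeb2 7mer-A1 at base 320 (chr2:44988236-44988264): tacgtatgtatCACTACAaacttaaaaaa
Zeb2 7mer-A1 at base 445 (chr2:44988111-44988139): taatgtgcccgCACTACAgtgcatcagta
Zeb2 7mer-A1 at base 3011 (chr2:44985545-44985573): attgtgacaatCACTACAatgtcctatat

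Of the other genes, Zeb1 held 1 7mer-A1 of miR-142a-3p, and Gata3 and Runx1 held 1 7-base match each to miR-142a-5p. A match of 7 or 8 bases to that microRNA was found in 24.0% of all tested genes with a 3′UTR, and in 21.1% and 50.1% of those with a 3′UTR as long as that of Gata3 and of Runx1 (within 20%). The remaining 6 genes held none, Eomes and Tbx21 among them. The Gata3 and Runx1 sites are shown for comparison, since Gata3 rose and Runx1 fell, on the minus strand with the match in capitals.
Gata3 7mer-m8 (chr2:9858018-9858046): atttgaggaagACTTTATtgtacctggat
Runx1 7mer-A1 (chr16:92604997-92605025): actacatttttCTTTATAatagccaaagt

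A sequence match is a description and does not show binding, and of the 3 genes with a match other than Zeb2, Gata3 was 1.19-fold higher, Runx1 was lower and Zeb1 did not pass the test. Genes that ZEB factors repress are mostly epithelial and were near 0 in these cells, so that 3 of 10 could be tested. Cdh1 (E-cadherin) went from 1.62 ± 0.743 to 15.6 ± 3.04 CPM (log2 fold change 3.27, adjusted p = 1.1e-09, edgeR's quasi-likelihood test). Epcam fell from 6.14 ± 0.362 to 2.54 ± 1.10 CPM (-1.28, adjusted p = 1.9e-05). Il2 went from 0.836 ± 0.397 to 0.443 ± 0.265 CPM (-0.90, adjusted p = 0.0470), close to the threshold, and did not pass with CP CML mouse 1, 4, 5, 6 or 8 or BC CML mouse 1, 2, 3 or 4 left out, which leaves 1 lower gene in the list. The count of lower genes was also 1 with DESeq2, with the stricter filter on low counts and with the neutrophil and monocyte covariate, but 3 with no filter. Among genes with too few reads to test, 2 lay below every CP CML mouse in all 6 BC CML mice. These were Cldn4 (4 to 15 reads in CP CML, 0 in BC CML) and Crb3 (5 to 15 and 0 to 4 reads). The other untested genes overlapped or had 0 reads.

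The RUNX genes also split. Runx3 had the most reads of the RUNX genes and is the RUNX factor of CD8+ and NK lineages (chr4:135120645-135177990, plus strand). It had 162, 180 and 224 CPM in the lowest, median and highest CP CML mouse and 207, 259 and 321 CPM in BC CML. Here 2 BC CML mice lay within the CP CML range, and the other 4 were above it. The mean of 187 ± 20.8 CPM (SD, n = 8) became 255 ± 41.5 CPM (SD, n = 6), 1.37-fold higher (log2 fold change 0.45, standard error 0.09, adjusted p = 5.4e-04, edgeR's quasi-likelihood test).

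Runx2, best known from bone and also active in memory CD8+ T cells (chr17:44603989-44814797, minus strand), rose by about as much. CP CML mice had 29.5, 32.7 and 35.8 CPM at the lowest, median and highest, and BC CML mice 41.9, 48.5 and 57.0 CPM. The groups did not overlap, and CP CML mice were close together. The mean of 32.8 ± 2.17 CPM (SD, n = 8) became 48.2 ± 5.39 CPM (SD, n = 6), 1.47-fold higher (log2 fold change 0.56, standard error 0.06, adjusted p = 6.9e-07, edgeR's quasi-likelihood test). Supt3, which overlaps Runx2 on the other strand, had a log2 fold change of 0.14 (adjusted p = 0.194).

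Runx1, the RUNX factor of blood stem cells, thymocytes and resting CD4+ T cells (chr16:92601466-92826074, minus strand), went the other way. CP CML mice lay in a narrow range of 92.7, 100.96 and 106 CPM at the lowest, median and highest, and BC CML mice at 53.1, 66.2 and 78.2 CPM. All BC CML mice lay below the CP CML range, and the spread among BC CML mice was wider, with a coefficient of variation of 16.0% against 4.44%. The mean of 100.72 ± 4.47 CPM (SD, n = 8) became 66.0 ± 10.5 CPM (SD, n = 6), 1.53-fold lower (log2 fold change -0.61, standard error 0.08, adjusted p = 2.4e-06, edgeR's quasi-likelihood test).

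Cbfb encodes the subunit that stabilises all RUNX proteins on DNA (chr8:105170674-105217988, plus strand). It had 194, 212 and 236 CPM in the lowest, median and highest CP CML mouse and 158, 170 and 183 CPM in BC CML, with no overlap. The mean of 214 ± 15.4 CPM (SD, n = 8) became 171 ± 8.19 CPM (SD, n = 6), 20.2% lower (log2 fold change -0.32, standard error 0.05, adjusted p = 1.2e-05, edgeR's quasi-likelihood test). The sum of the RUNX genes was 60.1 ± 5.10 CPM per kilobase in CP CML (54.0 to 69.3) and 75.0 ± 11.0 in BC CML (62.9 to 93.1), so that the groups overlapped, and it was not tested. The ratio of Cbfb to that sum was 1.23 ± 0.0914 (SD, n = 8) and 0.798 ± 0.137 (SD, n = 6), from 1.10 to 1.41 in CP CML and from 0.627 to 0.982 in BC CML.

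Within the RUNX family the make-up moved away from Runx1. Per kilobase, the share of Runx1 in the RUNX sum was in CP CML 18.0% ± 1.33 (SD, n = 8) and in BC CML 9.52% ± 1.73 (SD, n = 6), while Runx3 was 74.3% ± 2.04 and 81.4% ± 1.99. The log2 ratio of Runx1 to Runx3 reads fell by 1.07 (2.10-fold; exact permutation test, p = 6.7e-04, adjusted 8.3e-04), from between -1.12 and -0.68 to between -2.35 and -1.60. For Runx2 against Runx3 the ratio was -2.50 ± 0.20 and -2.39 ± 0.09, a difference of 0.11 (exact permutation test, p = 0.239), and the groups overlapped.

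The annotated upstream promoters of all 3 RUNX genes share an element that the data cannot separate by use, since the counts are per gene. In RefSeq (GRCm38.p6, 250 bases before to 50 after each start) each holds a pair of RUNX motifs, TGTGGT read on the opposite strand, with starts 8 bases apart. The motif itself was in 16.8% of 32851 promoters, and such a pair in 7 of them (0.0213%). The stretches are shown because the genes moved in different directions while holding the same letters in these windows, after the start in Runx1 and Runx2 and before it in Runx3, 5′ to 3′ on the gene's strand with the motifs in capitals.
Runx1 (chr16:92826025-92826069, minus strand, motifs at 29 and 37 from the start): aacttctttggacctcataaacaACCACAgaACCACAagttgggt
Runx2 (chr17:44814578-44814627, minus strand, motifs at 24 and 32): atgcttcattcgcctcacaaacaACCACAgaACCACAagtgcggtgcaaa
Runx3 (chr4:135120488-135120547, plus strand, motifs at -134 and -126): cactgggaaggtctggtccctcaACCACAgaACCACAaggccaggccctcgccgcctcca

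The longest run of letters shared by the 3 stretches was 18 bases. The T-box motif GGTGTGA (3.98% of promoters) and the GATA motif AGATAA (11.2%), searched on both strands, were in none of the 14 promoter windows matched to 9 of the 10 genes. The E-box CAGGTG that ZEB factors can bind (20.2%) was in those of Tbx21, Prdm1, Runx1 and Runx3, and GAAAGT, part of the Blimp-1 motif (14.3%), in those of Runx1 and Zeb2.

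Genes on which the RUNX factors act in the CD4+ and CD8+ lineage choice changed in both directions. Of 8 genes, all tested, 3 were higher and 1 lower, against 32.6% and 32.7% of all genes. Their median log2 fold change was 0.09. Cd4, silenced by RUNX3 in CD8+ cells, went from 404 ± 25.2 to 243 ± 45.8 CPM (log2 fold change -0.73, adjusted p = 5.0e-06, edgeR's quasi-likelihood test). Cd8a went from 689 ± 64.3 to 1260 ± 160 CPM (0.87, adjusted p = 2.4e-08), whereas its partner Cd8b1 had 388 to 466 CPM in CP CML and 414 to 550 CPM in BC CML (0.07, adjusted p = 0.352). Crtam, an adhesion receptor gene of cytotoxic cells, rose by 0.88 and Itgae (CD103) by 0.36. Zbtb7b, which encodes ThPOK, the CD4+ lineage factor, had a log2 fold change of 0.12 (adjusted p = 0.510).

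**Figure D3:**
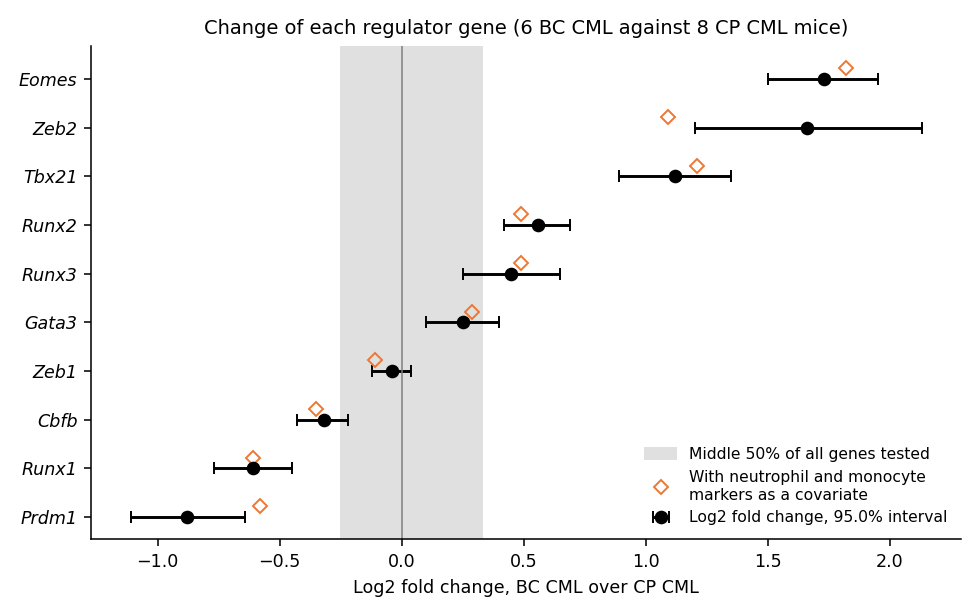
Log2 fold change of each regulator gene, BC CML over CP CML (horizontal axis), with its 95% interval in black and the value from the fit with the neutrophil and monocyte marker level as a covariate as an open diamond; the grey band is the middle 50% of the 12248 genes tested. Eomes, Zeb2 and Tbx21 lay farthest to the right, Zeb1 spanned 0, and the covariate moved Zeb2 from 1.66 to 1.09 and Prdm1 from -0.88 to -0.58.

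Levels can be compared between genes only per length, and the order of the 10 genes changed at the top. In CP CML Cbfb was highest with 73.5 ± 5.30 CPM per kilobase, then Runx3 with 44.7 ± 4.97, and neither overlapped the gene next to it. Gata3 (19.0 ± 1.95), Eomes (18.6 ± 3.39), Tbx21 (15.1 ± 2.53) and Zeb1 (12.4 ± 0.696) followed, and the ranges of Gata3 and Eomes, of Eomes and Tbx21 and of Tbx21 and Zeb1 overlapped across mice, although within mice the share of Eomes in both T-box genes was 55.1% ± 3.48 (SD, n = 8), as given above. Runx1 (10.8 ± 0.478) and Runx2 (4.62 ± 0.306) came next, then Prdm1 (3.85 ± 0.518), which overlapped Runx2, and Zeb2 (0.630 ± 0.232).

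In BC CML Eomes (61.5 ± 6.09 CPM per kilobase), Runx3 (61.1 ± 9.94) and Cbfb (58.7 ± 2.82) overlapped at the top, and by median Runx3 came first. Tbx21 (32.9 ± 3.76) and Gata3 (22.6 ± 2.34) followed without overlap. Zeb1 had 12.0 ± 0.310, and Runx1 (7.05 ± 1.13) was now level with Runx2 (6.80 ± 0.759). Prdm1 (2.10 ± 0.347) and Zeb2 (1.99 ± 0.457) overlapped at the bottom.

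**Figure D4:**
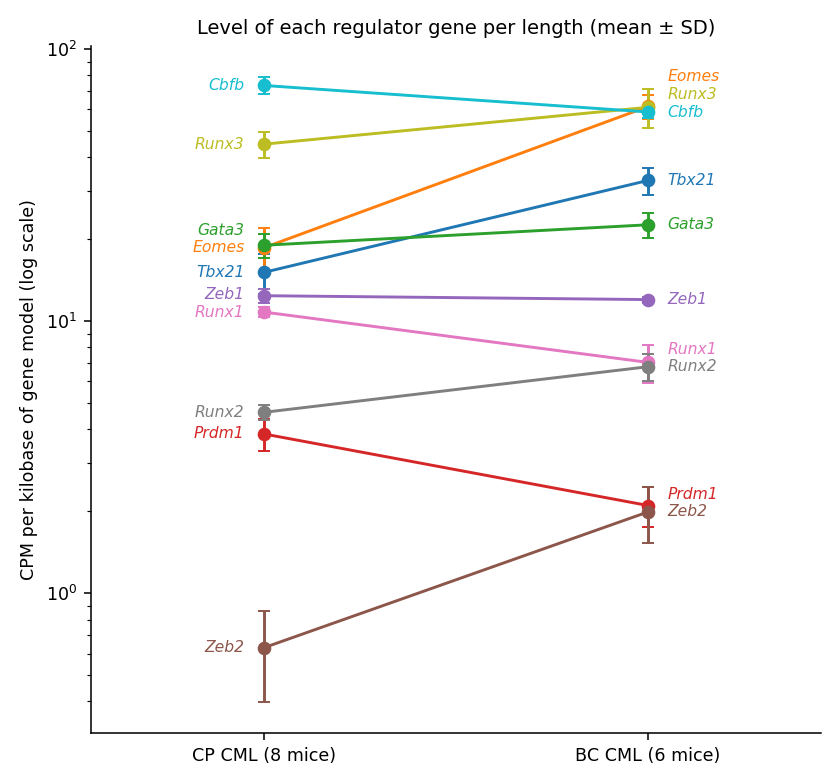
Mean level ± SD in CPM per kilobase of gene model (log axis) for the 10 regulator genes in CP CML (8 mice) and BC CML (6 mice), with a line joining the values of each gene. Eomes went from 18.6 to 61.5 and joined Runx3 and Cbfb at the top, and Zeb2 went from 0.630 to 1.99 and met Prdm1 at the bottom.

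Factors that act before the regulators were mixed as a list. Of 25 receptors and factors upstream of these genes, all tested, 9 were higher and 11 lower, against 32.6% and 32.7% of all genes. Their median log2 fold change was 0.04. The IL-12 route to T-bet and Eomes was among the higher ones: Il12rb2 went from 16.2 ± 2.16 to 88.8 ± 12.2 CPM (log2 fold change 2.46, adjusted p = 1.2e-12, edgeR's quasi-likelihood test), Il12rb1 from 30.1 ± 3.65 to 63.7 ± 8.52 CPM (1.08, adjusted p = 1.6e-08), and Stat4, which transmits the signal, rose by 0.47. Il2rb, which is also a T-box target, rose by 0.88. On the IL-4 route to GATA3, Il4ra rose by 0.18 and Stat6 fell by 0.15. Lef1 (-0.70) and Tcf7 (-0.67), factors of naive and memory T cells, fell most, and so did Batf (-0.61) and Irf4 (-0.54), which induce Prdm1 after antigen stimulation.

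Of 21 partners and corepressors of the regulators, 20 were tested. Of these, 10 were higher and 8 lower, against 32.6% and 32.7% of all genes, with a median of 0.11. Hlx, a homeobox partner gene of T-bet, went from 0.0501 to 0.368 CPM across CP CML mice to 1.46 to 2.31 CPM across BC CML mice, a low level (log2 fold change 2.97, adjusted p = 2.5e-08, edgeR's quasi-likelihood test). Ctbp2, a corepressor of ZEB proteins, was also low at 0.519 ± 0.250 and 1.96 ± 0.689 CPM (1.92, adjusted p = 3.8e-05), whereas its relative Ctbp1 fell by 0.11 from 194 ± 7.47 CPM. Zfpm1, which encodes FOG-1, a GATA partner, rose by 0.44. Tle1, a Groucho corepressor gene of RUNX proteins (-1.13, adjusted p = 1.1e-07), and Ets1, which binds DNA beside RUNX factors (-0.52, adjusted p = 4.2e-08), fell, as did Kdm1a (-0.35), a demethylase that Blimp-1 recruits.

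**Figure D5:**
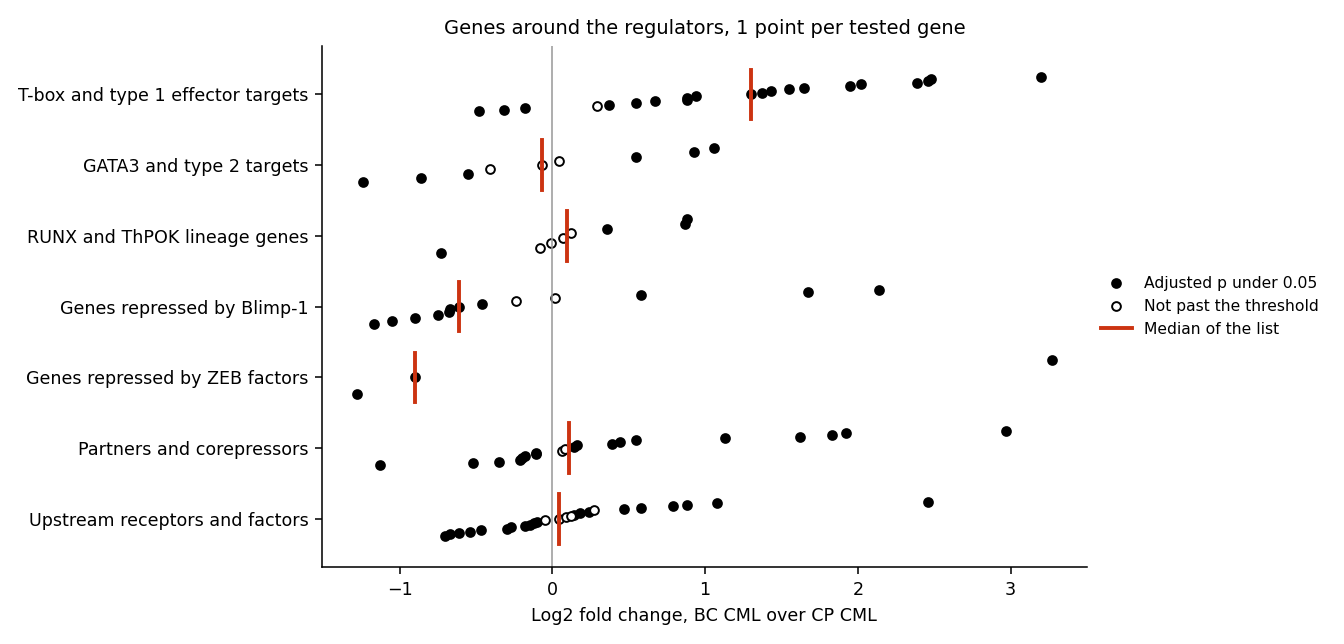
Log2 fold change, BC CML over CP CML (horizontal axis), of every tested gene in 7 lists around the regulators, with filled points past an adjusted p of 0.05, open points not past it, and the median of each list as a red line. The T-box targets had a median of 1.30, the genes repressed by Blimp-1 a median of -0.61, and the other lists spread to both sides of 0.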

How the data were processed

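Bulk RNA-seq counts of sorted spleen T cells from 8 CP CML and 6 BC CML mice were analysed. The authors trimmed the reads (Trimmomatic for adapters, FASTP for polyA), mapped them to mm10 by STAR 2.6.0, assigned them to genes by HTSeq 0.11.1 and deposited raw counts of 24091 genes with positions and gene lengths. The annotation and strand setting of the counting are not given in the sources used here.

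Counts were filtered by filterByExpr (12248 genes), normalized by TMM and tested with edgeR 4.0.16 in R 4.3.3 (quasi-likelihood test, robust, Benjamini-Hochberg over all genes tested, threshold 0.05). The likelihood ratio test of edgeR, which the study used, was an alternative. A standard error came from the fold change and the F statistic, and includes differences between mice. CPM are relative to TMM-scaled totals. The log2 ratios between genes used reads plus 0.5 and an exact two-sided permutation test (SciPy 1.17.1) over 5 ratios. Depth was 15703702 to 19914531 reads per mouse. Replicates of a group differed by more than sampling noise, so none was counted as a repeat. Seed matches were searched in the longest GENCODE vM21 3′UTR and motifs in RefSeq promoters. Within-group Pearson r used log2 CPM deviations from the group mean (prior count 2), ranked among genes with a mean log2 CPM of at least 3.

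The genes and all lists were chosen with earlier results of these data known. Named were all 10 genes, Mir142, overlapping genes, the nearest genes by r and, of each list, the 2 largest changes past the threshold in each direction, plus other list members with their values. Alternatives were that test, DESeq2 1.42.0, scaling by library size alone or by RLE, no filter or one of more than 1 CPM in at least 6 mice, a block for the replicate number, the neutrophil and monocyte marker level as a covariate, and each mouse left out. For the ratios they were 2 reads added and a sign-flip test over same-numbered mice. Simulated counts were used to test the fits.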

Additional observations from a re-analysis of the deposited data

Results flagged for a closer look

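Among 52 groups of values examined, 5 held a mouse set apart from its group by Dixon's criterion, which chance alone meets in about 1 in 20 groups (2.6 of 52). Tbx21 in CP CML mouse 7 was 24.5 CPM, and the next lowest mouse had 34.7 CPM. The same mouse was also lowest of CP CML for Eomes, Gata3 and Runx3 and highest for Zeb1. Gata3 in BC CML mouse 2 was 86.9 CPM, and the next highest mouse had 73.7 CPM. BC CML mouse 2 was also highest of its group for Runx2, Runx3 and Zeb2. The log2 ratio of Tbx21 to Eomes was -2.04 in BC CML mouse 3, with the next at -1.63. For Tbx21 over Gata3 the log2 ratio was 0.52 in BC CML mouse 4, with the next at 0.21. The summed markers of type 2 innate lymphoid cells were 38.3 CPM in CP CML mouse 1, with the next at 25.9 CPM.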

How the results depend on the processing

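Under the 8 alternative fits and the 14 fits with a mouse left out, the 10 regulator genes kept the direction and the side of the threshold given in the report, with 1 exception. With the replicate block, Gata3 changed by 0.20 on the log2 scale (adjusted p = 0.0519, edgeR's quasi-likelihood test), so that 5 of the 10 genes were higher there, and its adjusted p was between 0.00179 and 0.0519 over the alternatives. Mice with the same number were not paired. Deviations of same-numbered mice had correlations of -0.273 to 0.356, of which 2 of 6 were over 0.1, and 2 samples were closest to their own number. The block changed no other of the regulator calls, and with it the log2 fold change of Zeb2 (1.80) was above that of Eomes (1.71). Over all genes, 5793 to 8719 were called over the alternatives and 7721 to 7966 with a mouse left out, against 7986. Another scaling moved the median log2 fold change of all genes by at most 0.01. The 4 ratios past the threshold also kept it. Their adjusted p was at most 0.0391, from a sign-flip test that took same-numbered mice as 6 pairs and whose smallest p is 0.03125. Runx2 over Runx3 did not pass under any alternative or with any mouse left out, with differences of 0.07 to 0.18 on the log2 scale. Counts were low for genes near 1 CPM, such as Il2, and the effect of depth on their calls was not tested.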

Other observations

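Among mice of the same group, the regulator genes also varied together in part. Over the 14 libraries, the deviations from the group mean had a Pearson r of 0.64 for Gata3 and Runx1, 0.59 for Eomes and Runx3 and 0.57 for Tbx21 and Eomes, and of -0.64 for Tbx21 and Zeb1. These are descriptions, and the libraries share their depth between all genes. The genes closest to Runx3 were Mast3 (0.97), a kinase gene, and Itpr3 (0.96), a calcium channel gene. Closest to Gata3 was Cxcr6 (0.91), a chemokine receptor gene of effector and resident cells, and closest to Runx1 were Baiap2 (0.91) and the clock gene Arntl (0.89). Eomes went with Psph (0.90) and Apbb1ip (0.89), Tbx21 with Cobll1 and Klhl22 (0.87 each), and Cbfb with Tmx1 and Kpna4 (0.90 each). Runx2 went with Rhob (0.81) and Rbms1 (0.80), Prdm1 with Slc25a22 (0.82) and Cops4 (0.81), and Zeb1 with Wdr7 (0.88) and Ppm1a (0.87).

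Basophil and mast cell markers summed to 6.86 to 18.2 CPM in CP CML and 22.7 to 62.6 CPM in BC CML. Of the 6 tested, 3 were higher: Kit (mean 3.77 CPM in CP CML and 25.4 CPM in BC CML), Cpa3 and Hdc. Mcpt8 (log2 fold change 0.27), Prss34 (0.01) and Gata2 (-0.14) did not pass. Erythroid and megakaryocyte markers summed to 20.9 to 68.3 CPM and 44.6 to 74.0 CPM. Markers of dividing cells summed to 471 to 617 CPM and 455 to 797 CPM. Eno1b, whose listed span covers Runx3 on the same strand, had a log2 fold change of 0.03 (adjusted p = 0.875, edgeR's quasi-likelihood test).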
